A study of Homo sapiens with 18 samples.

Results

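The 56 genes described here act in the G2 phase of the cell cycle and in mitosis, and were chosen by name from the gene symbols of the count table in 4 roles. There are 14 regulators, 20 kinetochore and centromere genes, 13 spindle and cytokinesis genes, and 9 genes of condensin and chromosome structure. All 56 were among the 25296 genes of the table, and all 56 passed the filter on low counts that left 18226 genes for testing, so no member was lost. RNA was sequenced from U2OS cells, a human osteosarcoma line, transduced with the MigR1 retroviral vector. EV cells carry the empty vector, WT cells carry the vector with wild-type DNMT3A and MUT cells carry it with a mutant DNMT3A, a DNA methyltransferase. The protein change is R882H in the sample labels and R882C in the series text, so the line is called MUT here. Each line was either left untreated (the series text names a vehicle control) or given 10 µM cytarabine, a nucleoside analogue that blocks DNA synthesis, for 24 h, with 3 libraries labelled as biological triplicates in each of the 6 groups. Every comparison therefore concerns transduced cells of 1 tumour line, each with its own DNMT3A and, in WT and MUT, vector-driven DNMT3A.

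A cell enters mitosis when cyclin-dependent kinase 1 (CDK1) with cyclin B is released from inhibition, and Polo-like and Aurora kinases then build the spindle. Kinetochores, protein assemblies on the centromeres, hold the chromosomes on spindle microtubules, and the spindle checkpoint restrains CDC20, an activator of the anaphase-promoting complex (APC/C), until all are attached. Many of these genes are transcribed late in the cycle through a CHR element (cell cycle genes homology region) in the promoter, often near CCAAT boxes bound by NF-Y, where the MuvB complex sits with DREAM in quiescence and with B-MYB and FOXM1 in G2.

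Promoter windows are shown for the 3 members with the most negative mean change after cytarabine and for the 1 with the most positive, among members with a RefSeq window. The windows are RefSeq's, on GRCh38.p14, read 5′ to 3′ on the gene's strand, and only bases before the start site that GENCODE does not give as UTR of the same gene are printed. Capitals mark TTTGAA and TTTAAA, which are CHR core letters, and CCAAT, on either strand (read as TTCAAA and ATTGG on the reverse, while TTTAAA is its own reverse complement). The stretches are chr1:43358731-43358980 on the plus strand for CDC20, chr16:23678639-23678868 on the plus strand for PLK1, chr5:126776373-126776622 on the plus strand for LMNB1 and chr19:11155808-11156032 on the minus strand for SPC24.
CDC20: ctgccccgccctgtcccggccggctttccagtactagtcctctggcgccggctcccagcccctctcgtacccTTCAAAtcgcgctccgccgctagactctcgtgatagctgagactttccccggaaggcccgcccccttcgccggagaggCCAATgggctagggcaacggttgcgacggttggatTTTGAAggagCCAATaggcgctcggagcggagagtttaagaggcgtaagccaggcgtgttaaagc
PLK1: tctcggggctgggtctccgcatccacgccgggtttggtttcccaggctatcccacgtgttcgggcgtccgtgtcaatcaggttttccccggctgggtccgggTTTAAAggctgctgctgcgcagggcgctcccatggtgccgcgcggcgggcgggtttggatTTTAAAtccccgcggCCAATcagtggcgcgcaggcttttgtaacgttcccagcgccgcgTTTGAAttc
LMNB1: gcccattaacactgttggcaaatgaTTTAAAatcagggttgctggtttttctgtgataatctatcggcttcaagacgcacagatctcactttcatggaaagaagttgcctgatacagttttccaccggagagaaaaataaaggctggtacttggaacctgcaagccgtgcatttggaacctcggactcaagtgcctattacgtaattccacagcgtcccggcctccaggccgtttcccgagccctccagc
SPC24: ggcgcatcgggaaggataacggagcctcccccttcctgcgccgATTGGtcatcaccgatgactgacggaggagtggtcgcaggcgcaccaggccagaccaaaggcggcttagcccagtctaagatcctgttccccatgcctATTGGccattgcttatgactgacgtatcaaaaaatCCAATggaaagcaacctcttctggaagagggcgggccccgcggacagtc

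The CDC20 stretch has TTTGAA with its first base 65 bases before the start site, between CCAAT at -100 and -55, and a reverse match at -178. In PLK1 a CCAAT at -73 lies between TTTAAA at -88 and TTTGAA at -29, with another TTTAAA at -148. The LMNB1 window shown holds a single TTTAAA at -225. A second LMNB1 window (chr5:126776886-126777185) starts inside the transcript of the first and has TTTAAA at -191 and a reverse CCAAT at -138. SPC24 shows CCAAT letters at -207 and -109 on the reverse strand and at -74 on the forward strand, and neither CHR form. These matches describe letters and were not tested as binding sites.

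RefSeq windows, which run from 250 bases before to 50 after the start site, were found for 47 of the 56 members, as 61 windows. UBE2C, RACGAP1, TPX2, FOXM1, BUB3, TTK, BIRC5, AURKA and CDCA2 had no entry. TTTGAA was present for 31 of the 47 members (66.0%), against 18.2% of all 27305 symbols with windows. TTTAAA was present for 12 members (25.5%, against 14.5% of all symbols), and CCAAT for 33 (70.2%, against 39.7%). Either CHR form was found for 37 members (78.7%, against 27.9%), and 34 members (72.3%, against 13.6%) had one between 100 bases before and 50 after the start site. By role, among members with a window, a CHR form was present in 8 of 11 regulators and 13 of 17 kinetochore genes. It was present in 9 of 11 spindle genes and 7 of 8 condensin and chromosome structure genes. Between 100 bases before and 50 after the start site the counts were 8, 13, 9 and 4 in the same order. The mean log2 fold change after cytarabine over the 3 lines had a median of -0.22 in the 37 members with a CHR form and -0.19 in the 10 without one. With and without each CHR form the medians differed in opposite directions, which was not tested. For TTTGAA the median was -0.202 in the 31 members with it and -0.255 in the 16 without. Members with TTTGAA ran from -1.364 to 0.238 and those without from -0.889 to 0.402. For TTTAAA the median was -0.315 in the 12 with it and -0.202 in the 35 without. For either form near the start site, as counted above, it was -0.223 in the 34 members and -0.168 in the 13 without.

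**Figure D1:**
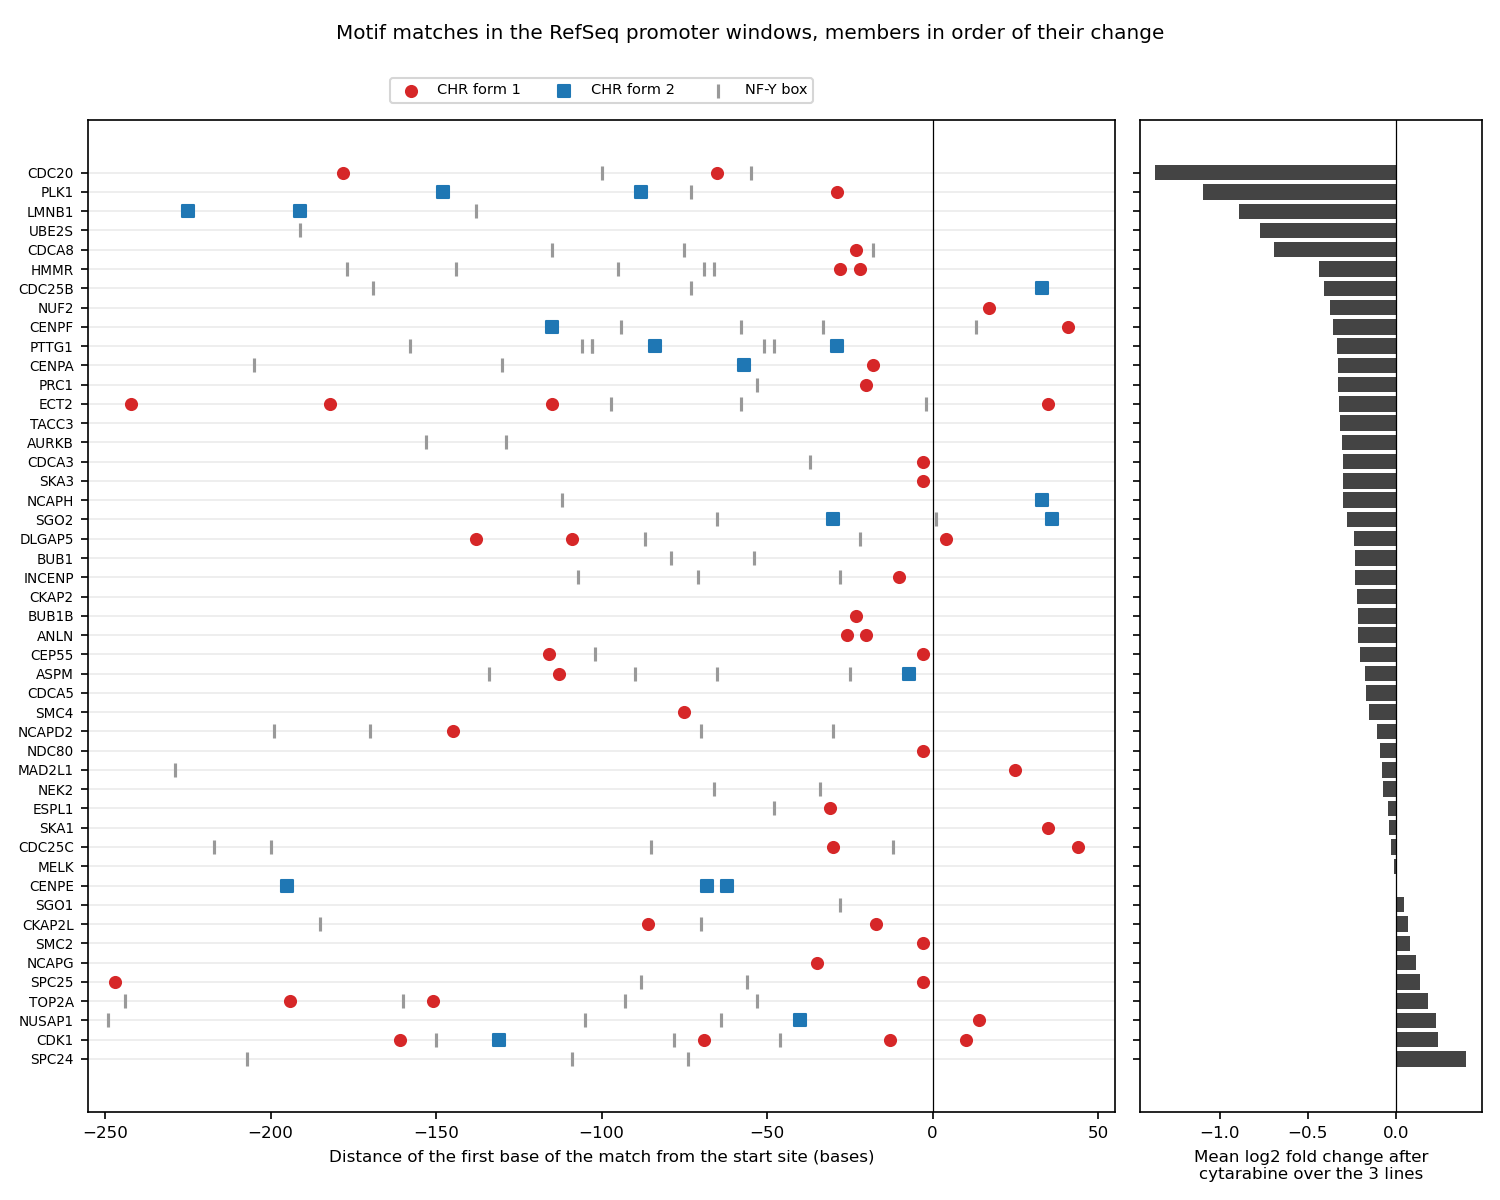
Positions of the motif matches (left, distance of the first base from the RefSeq start site, in bases) in members with a window, ordered by the mean log2 fold change after cytarabine over the 3 lines (right, bars). CHR form 1 and 2 are the 2 CHR letter forms and the NF-Y box is CCAAT, on either strand. Matches are counted in each window, so a site in overlapping windows of a gene counts more than once. Of 144 matches 80 have their first base in the 100 bases before the start site. Among them are 3 of 4 in CDC20 and in PLK1 at the top, but 0 of 3 in LMNB1. Near the bottom they include 3 of 4 in SPC25 and 4 of 8 in CDK1.

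The libraries held between 15391484 and 21850378 estimated counts each. Values below are CPM (counts scaled to a common library size) after TMM scaling (trimmed mean of M-values, which sets libraries level on the bulk of their genes), and changes are log2 fold changes from edgeR's quasi-likelihood fit over all 18 libraries, called at a Benjamini-Hochberg adjusted p under 0.05 over all 18226 genes. DNMT3A measured 26.9 ± 0.662 CPM (SD, n = 3) in untreated EV, 133 ± 5.17 in untreated WT and 456 ± 185 in untreated MUT cells. The 3 untreated MUT libraries differed most, with DNMT3A at 499.7, 615 and 253.6 CPM and a biological coefficient of variation of 0.216, followed by cytarabine-treated EV at 0.133, while the other 4 groups had 0.0398 to 0.0696. Of 10 mesenchymal and osteoblast markers 8 were in the table and all 8 averaged at least 1 CPM (3690 to 4180 CPM summed in untreated and 2700 to 3180 in treated libraries). None of the 4 blood markers in the table averaged 1 CPM. Of 6 epithelial markers 3 did (EPCAM, CDH1 and CLDN4; 13.3 to 23.8 CPM summed in untreated and 15.7 to 35.6 in treated libraries), and so did 3 of 4 endothelial markers (CDH5, VWF and TEK), whose sum was higher in every treated library (5.47 to 12.4 CPM) than in any untreated one (2.17 to 4.91). Their part in the results was not tested. In bulk RNA, fewer cells in G2 or mitosis and less of these RNAs per cell cannot be told apart.

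The members were expressed at very different levels. Per kilobase of exon, the highest in untreated EV cells were UBE2S at 191.7 CPM per kb and CDC20 at 180.7, and the lowest was CDC25C, a phosphatase that activates CDK1, at 2.95. The UBE2S locus overlaps RPL28 on the opposite strand, and the strand setting of the counting is not given. Summed over the 56 members, untreated cells reached 8968 ± 24.6 CPM in EV, 8520 ± 16.2 in WT and 9725 ± 116 in MUT (SD, n = 3). After cytarabine the sums were 7753 ± 301, 6991 ± 56.2 and 7860 ± 198. In each line the treated libraries all lay below the untreated ones. As a share of all counts, with no scaling, the members made up 0.836% to 0.852% of untreated and 0.822% to 0.843% of treated EV libraries, which overlap. The share was 0.811% to 0.818% against 0.75% to 0.766% in WT, and 0.849% to 0.898% against 0.82% to 0.849% in MUT.

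After cytarabine, more members fell than rose in every line. In EV cells 25 of 56 fell and 3 rose, where 22.9% of all tested genes fell and 26.1% rose. In WT cells 37 fell and 2 rose, against 22.7% and 26.3% of all genes. In MUT cells 32 fell and 5 rose, against 25.9% and 30.4%. The median log2 fold change of the members was -0.19 in EV, -0.26 in WT and -0.26 in MUT, beside 0.05, 0.03 and 0.05 for all tested genes. All treated libraries lay below all untreated ones for 34 members in EV (28.1% of all genes), 41 in WT (31.9%) and 30 in MUT (24.5%).

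Most of these falls were small: members that fell by at least 0.5 on the log2 scale numbered 5 in EV (9.77% of all tested genes), 6 in WT (10.3%) and 12 in MUT (14.3%). In EV and WT those counts are near the share of all genes. In all 3 lines 23 members fell (16.4% of all genes did) and 2 rose, SPC24 and NUSAP1 (18.9% of all genes). A further 9 fell in 2 lines and 7 in 1, and 12 were not called in any line.

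The counts depended on how the libraries were set level. TMM factors were 1.04 to 1.11 in treated and 0.862 to 0.961 in untreated libraries. With library totals alone, a scaling added after the data were seen, the median of all genes moved to 0.24, 0.21 and 0.31 in EV, WT and MUT and the members' median to 0.00, -0.08 and 0.00. The members then fell in 8, 15 and 13 cases and rose in 11, 8 and 17. The shares of all tested genes that fell and rose with totals are not given, here or for the roles and partner lists below. Counts with totals therefore show only how far the calls depend on the scaling. Among all called genes the share that rose was 53.2%, 53.6% and 54% with TMM, 74.2%, 73.9% and 76.7% with totals, and 45.2%, 46.8% and 46.6% with the authors' own factors. Relative to the median of all genes the members' median was -0.24, -0.29 and -0.31 with TMM and -0.24, -0.29 and -0.31 with totals. A change of scaling shifts all genes of a comparison nearly alike, so these values could hardly differ and do not test the fall. The sign of the fold change turned under at least 1 of 4 scalings for 19 members in EV, 11 in WT and 21 in MUT. The members that fell in all 3 lines under all 4 scalings (TMM, DESeq2's relative log expression, the authors' factors, totals) were 7, namely CDC20, PLK1, AURKA, UBE2S, BIRC5, CDCA8 and LMNB1.

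**Figure D2:**
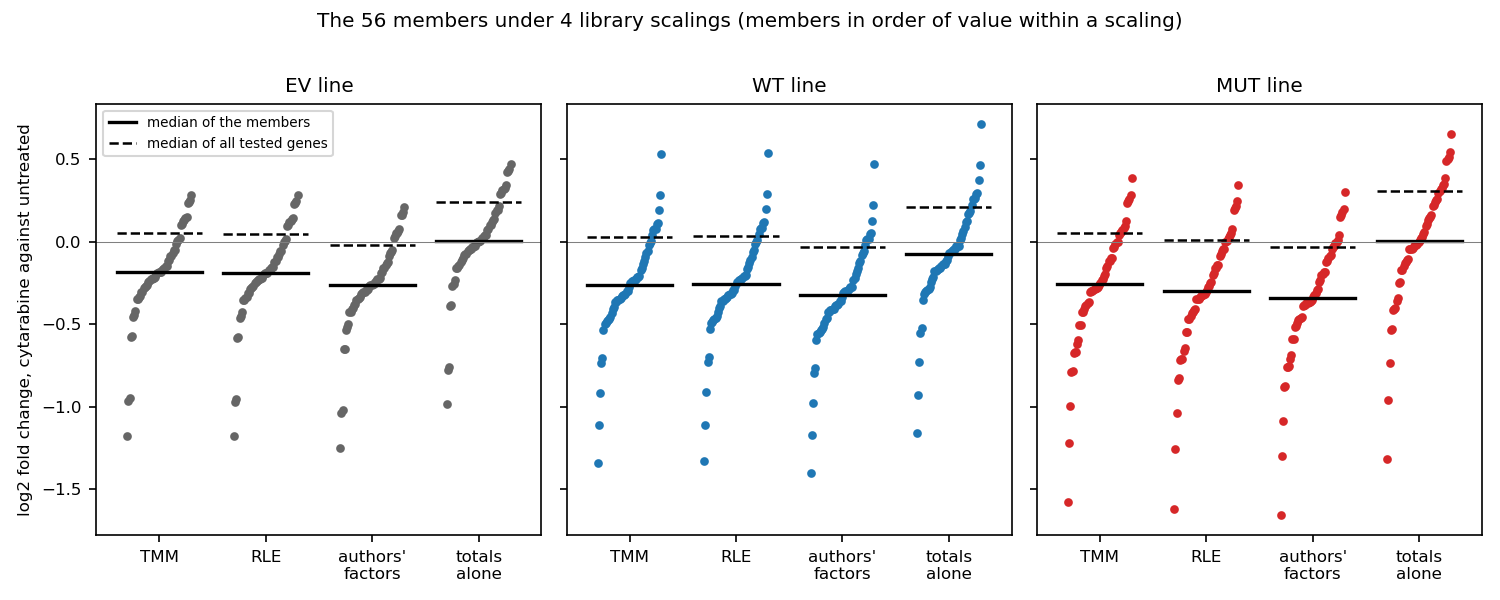
Log2 fold change of each member after cytarabine in EV, WT and MUT cells under TMM, relative log expression (RLE), the authors' factors and library totals alone, with the medians of the members (solid) and of all tested genes (dashed). Totals shift members and all genes together, so the members' median relative to all genes stays at -0.24, -0.29 and -0.31 while its sign against 0 changes in EV and MUT.

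Among the regulators, CDC20, which activates the APC/C, changed most. CDC20 (chr1:43358955-43363204 in the deposited annotation, hg38) measured 357.4, 369.2 and 364.3 CPM in untreated EV libraries and 159.3, 157.4 and 165.9 after cytarabine. WT libraries had 312.2, 307.0 and 297.5 CPM untreated and 118.2, 121.5 and 122.4 treated. MUT libraries had 409.1, 377.1 and 464.3 CPM untreated and 139.9, 123.0 and 156.6 treated. In each line the highest treated library was far below the lowest untreated one. CDC20 fell by 1.18 ± 0.08 (SE) on the log2 scale in EV (edgeR adjusted p = 1.44e-09), by 1.34 ± 0.08 in WT and by 1.58 ± 0.08 in MUT. Its processed pseudogene CDC20P1, whose reads a counter may split with CDC20, held a mean of 348.3 counts per library against 4697.5 for the gene and had log2 fold changes of -1.16, -1.47 and -1.54.

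PLK1, the Polo-like kinase of mitotic entry and spindle assembly (chr16:23677656-23690368), had 158.7, 161.2 and 158.5 CPM in untreated and 83.37, 82.97 and 81.81 in treated EV libraries. It ran from 137.0 to 143.1 CPM in untreated WT and from 59.88 to 68.52 in treated WT libraries. In MUT the ranges were 162.1 to 176.3 and 69.95 to 76.78 CPM. No treated library reached an untreated one in any line. The falls were 0.95 ± 0.06 in EV, 1.11 ± 0.06 in WT and 1.22 ± 0.06 in MUT on the log2 scale, with edgeR adjusted p-values of 8.62e-10, 9.56e-11 and 2.63e-11.

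UBE2S, the enzyme that extends ubiquitin chains with the APC/C (chr19:55399745-55407778), had 568.3, 540.0 and 501.7 CPM in untreated and 340.8, 370.4 and 367.5 in treated EV libraries. Untreated MUT libraries were higher and more spread, at 681.7, 767.8 and 987.7 CPM, and the treated ones were at 431.6, 372.9 and 415.4. UBE2S fell by 0.58 ± 0.11, 0.74 ± 0.11 and 1.00 ± 0.11 (log2) for EV, WT and MUT (edgeR adjusted p = 2.17e-04, 1.64e-05 and 3.05e-07). The pseudogenes UBE2SP1 and UBE2SP2 held means of 337.4 and 340.3 counts per library, against 9391.5 for UBE2S. In EV, WT and MUT, UBE2SP1 had log2 fold changes of -0.47, -0.18 and -0.92, called in MUT alone. UBE2SP2 had -0.64, -1.22 and -1.15, called in each line. AURKA, the Aurora kinase of the spindle poles, fell by 0.46, 0.50 and 0.67, and CDC25B, another CDK1-activating phosphatase, fell by 0.34, 0.48 and 0.41, in EV, WT and MUT in that order. UBE2C, the APC/C's chain-starting enzyme, fell by 0.54 in WT and 0.62 in MUT, with a log2 fold change of -0.27 in EV that was not called.

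CDK1 itself did not follow its partners. It had 241.0, 217.7 and 234.3 CPM in untreated and 257.0, 267.3 and 293.1 in treated EV libraries, with a log2 fold change of 0.24 ± 0.10 that missed the threshold (edgeR adjusted p = 0.0546). In MUT it had 201.0, 159.0 and 235.8 CPM untreated and 230.5, 239.1 and 257.3 treated, groups that overlap, and was called higher by 0.29 ± 0.10 (edgeR adjusted p = 0.0199). That call was lost without untreated MUT replicate 2, the lowest of the 3, where the log2 fold change was 0.11, without treated MUT replicate 3 (0.24) and with the authors' factors (0.20). FOXM1, a transcription factor of G2 genes, had log2 fold changes of -0.09, 0.00 and -0.04 in EV, WT and MUT and was called in none. Nor were MELK, ESPL1 or CDC25C, so 4 of the 14 regulators had no call in any line, while 5 fell in all 3. With library totals alone 4, 6 and 7 regulators fell and 2, 2 and 4 rose in EV, WT and MUT.

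The kinetochore and centromere genes had 7 of 20 members that fell in all 3 lines, 3 in 2 and 4 in 1. With library totals alone 3, 5 and 4 fell and 4, 3 and 6 rose in EV, WT and MUT. CDCA8 and BIRC5, which are borealin and survivin of the chromosomal passenger complex that corrects microtubule attachment, changed most. CDCA8 (chr1:37692418-37709720) ran from 91.24 to 97.97 CPM in untreated and from 61.74 to 68.12 in treated EV libraries, from 79.10 to 84.15 and from 47.88 to 52.61 in WT, and from 96.79 to 103.3 and from 52.07 to 64.76 in MUT. The treated and untreated ranges were apart in each line, and CDCA8 fell by 0.57 ± 0.08, 0.70 ± 0.08 and 0.79 ± 0.08 on the log2 scale. BIRC5 fell by 0.42 ± 0.08, 0.43 ± 0.08 and 0.67 ± 0.08 (edgeR adjusted p = 2.46e-04, 1.96e-04 and 1.05e-06), with untreated MUT libraries at 371.6, 426.6 and 492.3 CPM. The other members of that complex, INCENP and the kinase AURKB, fell in WT, by 0.35 and 0.40, and were not called elsewhere, with log2 fold changes of -0.22 and -0.28 in EV and -0.12 and -0.23 in MUT.

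TTK, the kinase at the top of the spindle checkpoint, fell by 0.22 ± 0.07, 0.47 ± 0.08 and 0.50 ± 0.07 in EV, WT and MUT. Its EV libraries were at 43.29, 42.82 and 41.01 CPM untreated and 33.54, 37.77 and 37.85 treated. The EV call was lost without untreated replicate 1 or replicate 2 (log2 fold change -0.21 in both cases) and without treated replicate 1 (-0.16), and with library totals alone it was -0.03. BUB1 and BUB3 of the checkpoint fell in all 3 lines, by 0.19, 0.21 and 0.30 and by 0.35, 0.30 and 0.37 in EV, WT and MUT, while BUB1B and MAD2L1 fell in WT by 0.33 and 0.25 and were not called in EV or MUT.

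The NDC80 complex, which binds microtubules, was split. NUF2 fell by 0.46 in WT and 0.51 in MUT, NDC80 and SPC25 were not called in any line, and SPC24 rose in all 3. SPC24 (chr19:11131520-11155809) had 48.31, 49.66 and 45.87 CPM in untreated and 55.84, 61.80 and 57.82 in treated EV libraries. WT libraries had 44.09, 51.74 and 47.90 CPM untreated and 71.25, 66.95 and 69.68 treated. MUT libraries had 45.03, 58.62 and 62.59 CPM untreated and 76.54, 73.16 and 67.46 treated. All treated libraries were above all untreated ones in each line. SPC24 rose by 0.29 ± 0.10, 0.53 ± 0.10 and 0.39 ± 0.09 on the log2 scale (edgeR adjusted p = 0.0187, 1.17e-04 and 0.00178). The EV call was lost with the authors' factors (0.21), without treated replicate 2 (0.24) and without untreated replicate 3 (0.25).

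Of the 13 spindle and cytokinesis genes 7 fell in EV, 11 in WT and 10 in MUT, and 7 in all 3, whereas with library totals alone 0, 3 and 1 fell and 3, 1 and 2 rose. HMMR, a spindle-pole protein, had 92.95, 90.09 and 92.97 CPM in untreated and 70.76, 84.34 and 80.48 in treated EV libraries, and 106.9, 103.8 and 112.6 against 65.69, 72.73 and 75.08 in MUT. It fell by 0.23 ± 0.07 in EV, 0.48 ± 0.07 in WT and 0.60 ± 0.07 in MUT, and without treated EV replicate 1 the HMMR value in EV was -0.16 and not called. TPX2, which activates AURKA on microtubules, fell by 0.31 ± 0.08, 0.32 ± 0.08 and 0.38 ± 0.08, and its untreated MUT libraries were at 382.3, 479.4 and 374.1 CPM, of which replicate 2 stood apart. PRC1, which bundles the central spindle, had 179.2, 176.0 and 169.3 CPM in untreated and 147.3, 147.5 and 147.9 in treated EV libraries, 191.4, 186.6 and 188.0 against 146.8, 148.8 and 147.9 in WT, and 179.3, 200.4 and 166.3 against 139.1, 138.6 and 139.3 in MUT. The treated PRC1 values were apart from the untreated ones in each line. PRC1 fell by 0.24 ± 0.06, 0.35 ± 0.06 and 0.39 ± 0.06. ECT2 and ANLN of the cytokinetic ring fell in all 3 lines too, by 0.35, 0.34 and 0.27 and by 0.19, 0.23 and 0.23.

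NUSAP1, a microtubule-bundling protein, went the other way. It had 130.5, 133.7 and 137.7 CPM in untreated and 149.1, 142.5 and 154.8 in treated EV libraries, 129.8, 138.3 and 130.5 against 162.0, 164.3 and 158.7 in WT, and 164.2, 154.0 and 158.3 against 185.3, 188.2 and 191.0 in MUT. Its groups did not overlap in any line. The rises were 0.15 ± 0.06, 0.28 ± 0.06 and 0.24 ± 0.06 on the log2 scale (edgeR adjusted p = 0.0317, 3.41e-04 and 0.00106), and the EV call was lost with the authors' factors (0.08), without the low-count filter (0.13), without untreated replicate 1 (0.13) or replicate 2 (0.15) and without treated replicate 1 (0.15) or replicate 3 (0.12). The NUSAP1 locus also overlaps 2 same-strand genes of the table, AC087721.1 and AC087721.2.

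Of the condensin and chromosome structure genes, LMNB1, which codes for lamin B1 of the nuclear lamina, stood apart. LMNB1 (chr5:126776623-126837021) had 258.0, 267.6 and 253.1 CPM in untreated and 133.8, 129.2 and 135.8 in treated EV libraries. WT libraries had 270.0, 277.1 and 290.8 CPM untreated and 143.6, 143.9 and 156.9 treated. MUT libraries had 444.2, 365.5 and 415.6 CPM untreated and 237.6, 226.8 and 245.7 treated. The level was higher in MUT than in EV and WT cells in both conditions, and no treated library reached an untreated one of its line. LMNB1 fell by 0.97 ± 0.07, 0.91 ± 0.07 and 0.79 ± 0.07 on the log2 scale (edgeR adjusted p = 2.88e-09, 4.81e-09 and 1.80e-08).

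Of the 9 genes of this role 5, 5 and 4 fell and 1, 0 and 2 rose in EV, WT and MUT, and with library totals alone 1 fell in each line and 2, 2 and 5 rose. NCAPH fell by 0.33 ± 0.08, 0.36 ± 0.08 and 0.21 ± 0.08 in EV, WT and MUT, and in MUT its untreated libraries, at 142.9, 130.4 and 114.0 CPM, overlapped the treated ones at 120.3, 103.6 and 111.2. The NCAPH call in MUT was lost without untreated replicate 1 (-0.13) and without treated replicate 2 (-0.16) or replicate 3 (-0.21). SMC4 fell by 0.18 in EV and 0.24 in WT, SMC2 rose by 0.24 in MUT and was not called in EV or WT, and NCAPG and NCAPD2 were not called in any line. CDCA2, a chromatin-bound phosphatase subunit, had 77.81, 77 and 75.69 CPM in untreated and 56.38, 74.91 and 64.49 in treated EV libraries, 69.93, 65.40 and 70.45 against 60.63, 58.74 and 55.12 in WT, and 75.22, 81.07 and 71.67 against 61.87, 60.76 and 62.01 in MUT. It fell by 0.24 ± 0.08, 0.24 ± 0.08 and 0.30 ± 0.08. The CDCA2 call was lost in EV without treated replicate 1 (-0.14) or replicate 3 (-0.23) or untreated replicate 1 (-0.23) or replicate 2 (-0.24), and in WT without treated replicate 3 (-0.20) or untreated replicate 1 or replicate 3 (-0.22 in both cases). CDCA5, sororin of cohesin, fell by 0.17, 0.14 and 0.20. TOP2A, the topoisomerase of mitotic chromosomes, rose by 0.25 ± 0.07 in EV and 0.26 ± 0.07 in MUT and had 0.04 ± 0.07 in WT. Its libraries were at 576.1, 592.8 and 609.3 CPM untreated and 655.5, 749.1 and 717.3 treated in EV, and at 557.7, 557.8 and 556.3 untreated and 603.3, 553.4 and 563.9 treated in WT.

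**Figure D3:**
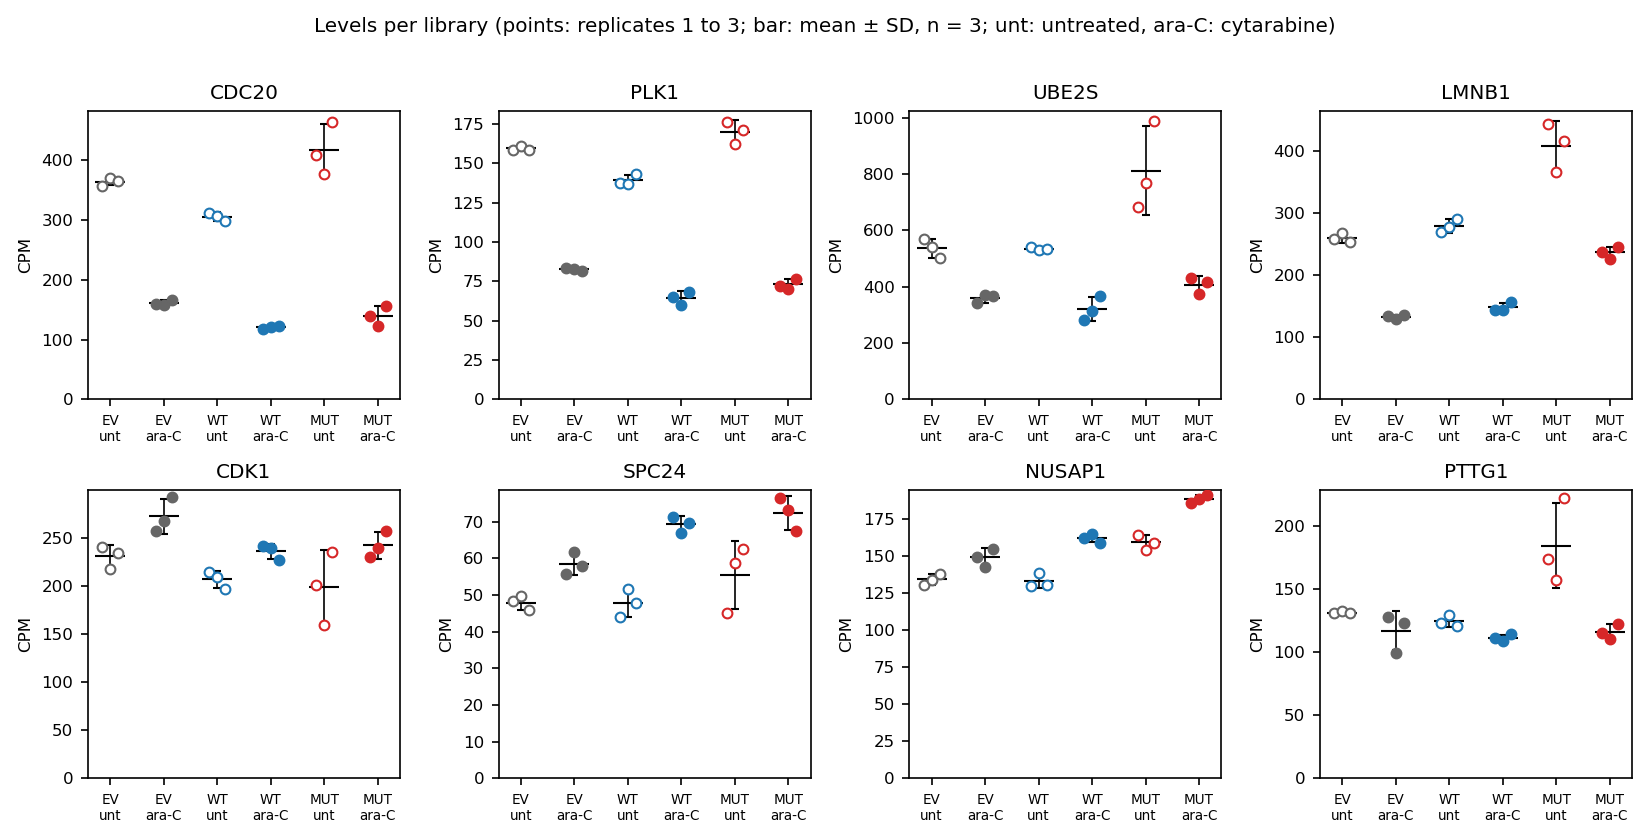
CPM in each library (points, open untreated and filled after cytarabine; bars mark the mean ± SD of 3) for 8 members in the 6 groups. CDC20, PLK1 and LMNB1 lie lower in every treated library of a line than in its untreated libraries, and SPC24 and NUSAP1 lie higher.

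**Figure D4:**
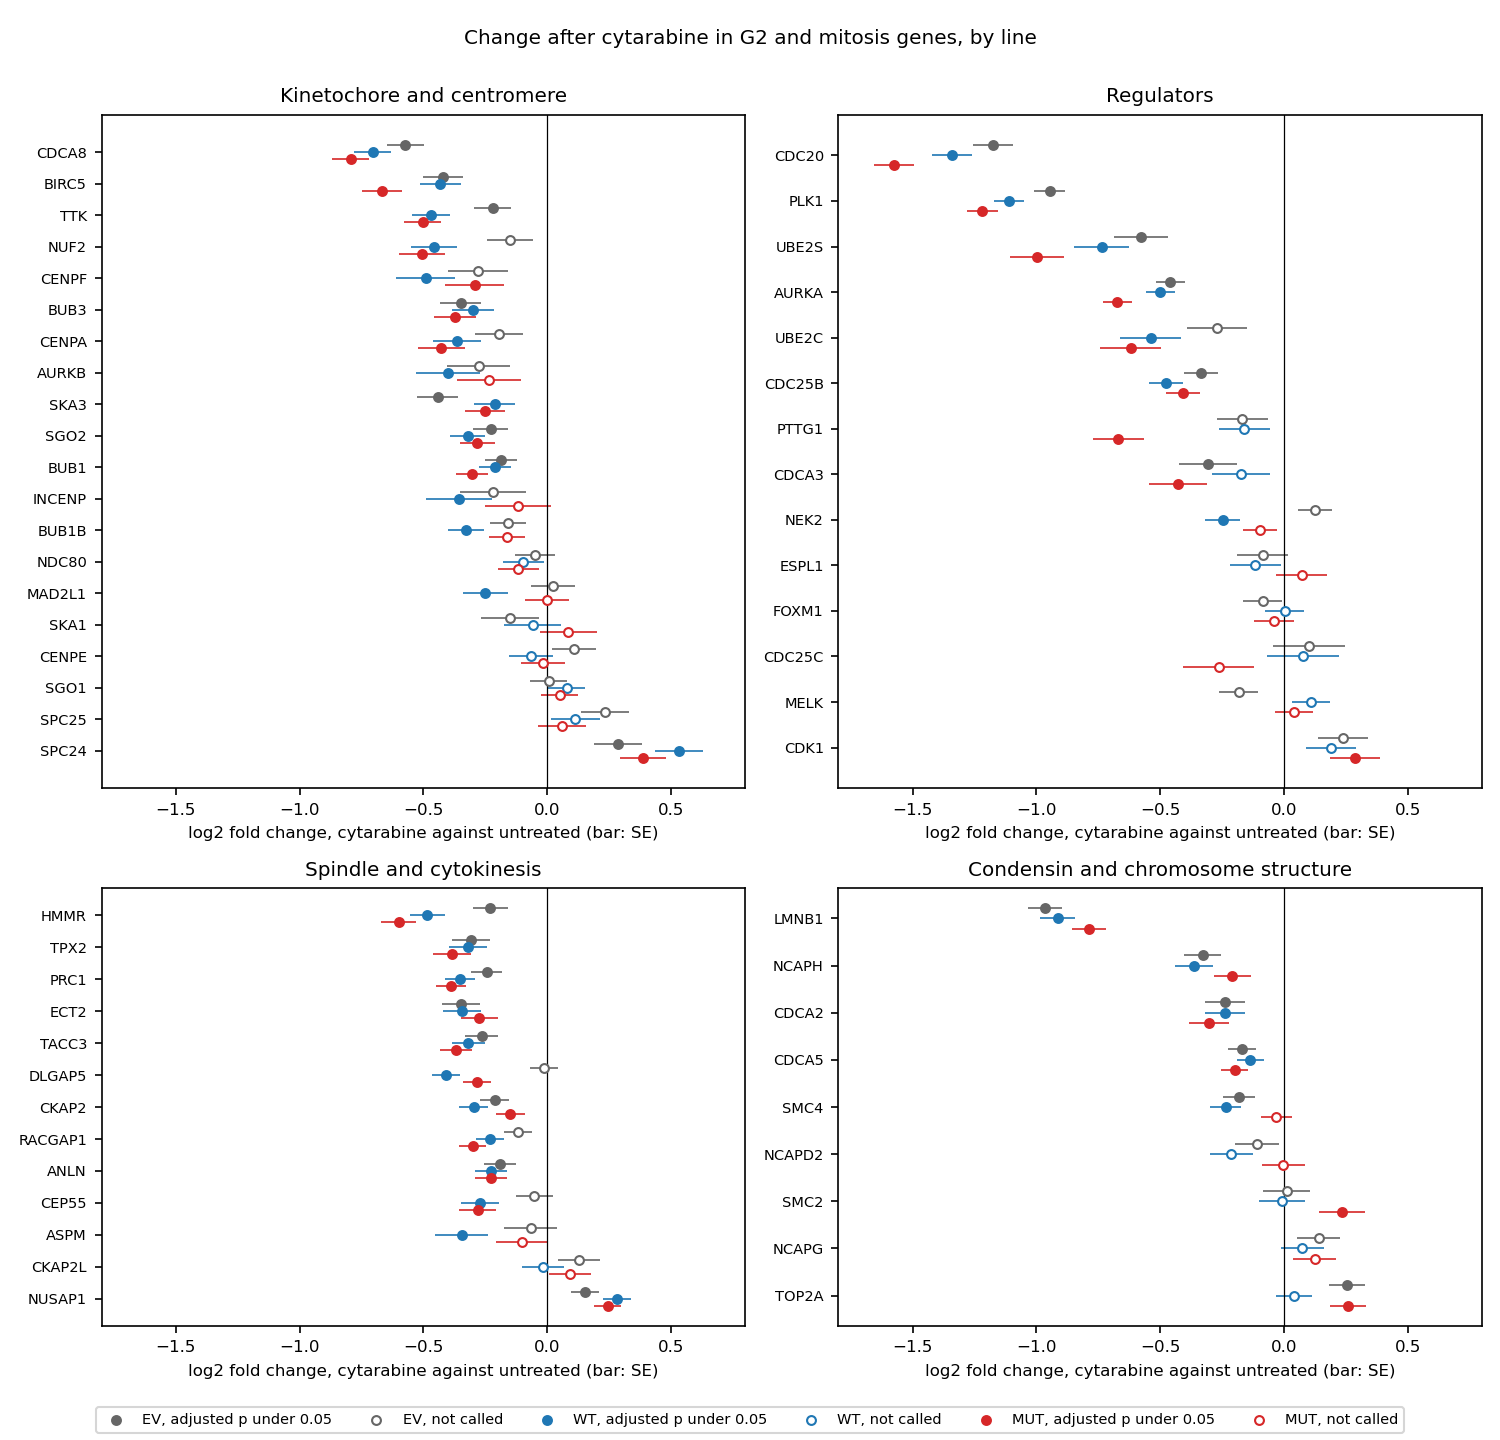
Log2 fold change of each of the 56 members after cytarabine in EV, WT and MUT cells, by role, with the SE as a bar and the called values filled. CDC20, PLK1, LMNB1, UBE2S and CDCA8 have the most negative values, and SPC24 and NUSAP1 are called higher in all 3 lines.

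The difference of the cytarabine effect between lines was tested as an interaction. Between MUT and EV no member was called by edgeR (0.214% of all genes were called in either direction). At an unadjusted p under 0.05 there were 13 (15.8% of all genes), and DESeq2 called 7 (5.76% of the genes it gave an adjusted p), namely CDC20, PLK1, AURKA, PTTG1, RACGAP1, HMMR and DLGAP5. Without untreated MUT replicate 2 edgeR called 6, namely CDC20, PLK1, PTTG1, CENPA, NUF2 and HMMR, and without untreated MUT replicate 1 it called UBE2S. The shares of all genes called without these libraries are not given, so these calls cannot be set against them. For CDC20 the difference was -0.40, with a 95% interval of -0.62 to -0.18 (edgeR adjusted p = 0.120). Between MUT and WT no member was called (1% of all genes), 2 had an unadjusted p under 0.05 (15.4% of all genes) and DESeq2 called 1, PTTG1 (6.35% of the genes it gave an adjusted p). PTTG1, securin, the separase inhibitor, ran from 157.5 to 222.7 CPM in untreated and from 110.4 to 122.6 in treated MUT libraries and fell by 0.67 ± 0.10 there, while it had -0.17 ± 0.10 in EV and -0.16 ± 0.10 in WT. The difference for PTTG1 was -0.50 ± 0.15 from EV and -0.51 ± 0.15 from WT (edgeR adjusted p = 0.122 and 0.0943).

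Between WT and EV the single member called was DLGAP5, a kinetochore-fibre protein (0.285% of all genes were called; 7 members had an unadjusted p under 0.05, as had 9.96% of all genes, and DESeq2 called 1 member and 1.01% of the genes it gave an adjusted p). DLGAP5 had 158.6, 161.1 and 158.5 CPM in untreated and 157.1, 153.3 and 163.1 in treated EV libraries. WT libraries had 151.1, 146.5 and 142.2 CPM untreated and 113.9, 108.0 and 109.6 treated, and MUT libraries had 171.9, 179.1 and 167.8 against 148.6, 137.7 and 139.7. The EV groups overlapped and the WT and MUT groups did not. The effect in WT minus that in EV was -0.39 ± 0.08 (edgeR adjusted p = 0.0427). The call held in 4 of 20 alternatives, and the value in all 20 lay between -0.42 and -0.37.

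Lines were also compared at the same treatment. These comparisons share the libraries of the lines, and each line is a single transduced population as far as the labels say. WT cells had the lowest mean of the 3 lines for 35 of 56 members untreated (31.3% of all genes) and for 40 after cytarabine (35.5%), and MUT cells had the highest for 33 untreated (37% of all genes) and 25 after cytarabine (32.7%), where EV had the highest for 26 (32.8%). Untreated, MUT exceeded WT in 22 members and was below it in 0 (11.7% and 9.54% of all genes), and after cytarabine the counts were again 22 and 0 (10.4% and 9.48%). Untreated MUT was higher than EV in 12 members and lower in 1 (9.88% and 10%), and treated MUT was higher in 8 and lower in 4 (6.85% and 7.13%). WT was lower than EV in 9 members and higher in 1 untreated (7.36% and 4.3%), and lower in 21 and higher in 1 after cytarabine (9.12% and 7.41%). With library totals alone untreated MUT was higher than EV in 7 members and lower in 6, and higher than WT in 15 and lower in 3, while the share of all called genes that were higher moved from 49.6% to 29.6% and from 55.1% to 32.2%. Without untreated MUT replicate 2, 22 members differed between untreated MUT and EV, in place of 13. Leaving out any of the 6 libraries left 3 or 4 of the 10 that differed between untreated WT and EV. The untreated MUT libraries had a biological coefficient of variation of 0.216, against 0.0398 in untreated EV and in untreated WT. Fitted on only the groups compared, fewer members differed between untreated MUT and either other line. More differed between untreated WT and EV and between treated MUT and WT, with the counts given under the dependence on processing below. For these smaller fits the shares of all genes are not given.

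LMNB1 had the largest difference of the members between MUT and EV in both conditions and between MUT and WT after cytarabine. It was higher in MUT by 0.65 ± 0.07 than in EV and 0.55 ± 0.07 than in WT untreated, and by 0.83 ± 0.07 and 0.68 ± 0.07 after cytarabine (edgeR adjusted p = 4.13e-06, 1.76e-05, 3.81e-07 and 1.55e-06). UBE2S was higher in untreated MUT by 0.60 ± 0.11 against either line, and PTTG1 by 0.57 ± 0.10 against WT. SPC25 was higher in MUT than in EV after cytarabine by 0.40 ± 0.10, with 101.6, 93.99 and 94.43 CPM against 77.60, 66.42 and 75.86. NCAPH was higher in MUT than in WT after cytarabine by 0.42 ± 0.08. The treated MUT libraries lay above those of the line compared for both genes.

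Between WT and EV the most changed members were BUB1 and ASPM untreated and NEK2 and ASPM after cytarabine. BUB1 had 135.0, 125.1 and 132.4 CPM in untreated WT and 165.5, 167.4 and 171.5 in untreated EV libraries, a log2 difference of -0.36 ± 0.06 (edgeR adjusted p = 8.43e-04). ASPM, a spindle-pole protein, had 79.93, 83.91 and 74.52 CPM in untreated WT and 97.27, 101.7 and 100.8 in untreated EV libraries, and 65.04, 61.77 and 60.78 against 82.30, 108.6 and 95.49 after cytarabine. It differed by -0.33 ± 0.11 untreated (edgeR adjusted p = 0.0499), and this call was lost without any 1 of the 6 libraries. NEK2, a centrosome kinase, had 39.62, 35.99 and 44.29 CPM in treated WT and 64.50, 58.56 and 62.99 in treated EV libraries. The differences after cytarabine were -0.63 ± 0.07 for NEK2 and -0.61 ± 0.11 for ASPM. In the values shown, all libraries of WT lay below those of EV for BUB1, ASPM and NEK2.

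**Figure D5:**
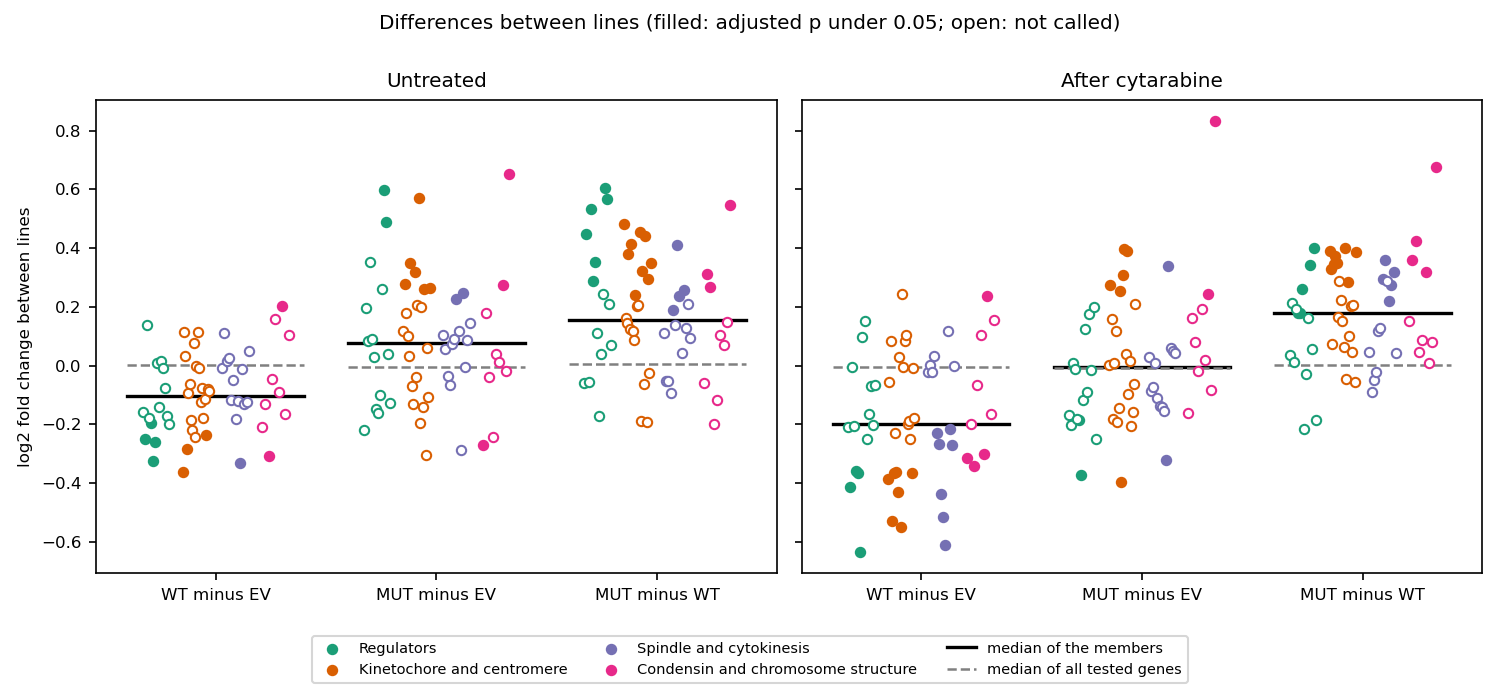
Log2 fold change between lines for each member, untreated (left) and after cytarabine (right), coloured by role, filled where called, with the medians of the members (solid) and of all tested genes (dashed). LMNB1 is the highest point in each comparison of MUT with EV, and NEK2 is the lowest in WT minus EV after cytarabine.

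Members varied more among the untreated MUT libraries than elsewhere, with a median coefficient of variation over the 56 of 10.7%, against 6.75% in treated EV and 2.75% to 4.47% in the other groups. The widest was INCENP in untreated MUT, at 29.2%. Untreated MUT replicate 3 had the highest of the 3 values for CDC20, UBE2S, PTTG1, BIRC5 and SPC25 named above, and the lowest for TOP2A and NCAPH. The part of this spread in the results was not tested beyond the values without each library given above.

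Other genes of the same processes were taken from lists of partners. Called shares of all tested genes are those given above for each line. Of 21 further genes of mitotic entry, 14 fell in EV, 13 in WT and 15 in MUT, while 0, 2 and 2 rose. Among them CKS2, a small CDK-binding protein, fell by 0.56, 0.75 and 1.10, and CCNB1, cyclin B1, fell by 0.36, 0.62 and 0.89 in EV, WT and MUT. The CCNB1 effect in MUT minus that in EV was -0.53 ± 0.10 (edgeR adjusted p = 0.0246). CCNB1 was the 1 call of this interaction among the 21, the other partner lists had 0, and 0.214% of all genes were called. Values for CCNB1 under the alternatives are not given. In the interaction of MUT with WT the partner lists had 1 call, a kinetochore gene, where 1% of all genes were called. Of 17 APC/C subunits and related genes, 11, 13 and 14 fell and 0 rose, with ANAPC15 at -0.81, -0.999 and -1.15 and CDC26 at -0.60, -0.59 and -0.78.

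Of 31 other kinetochore genes 12, 13 and 15 fell and 2, 8 and 6 rose, with PMF1 of the MIS12 complex at -0.83, -0.41 and -0.76 and CENPO at -0.53, -0.52 and -0.48. Of 15 cohesin and condensin II genes 9, 9 and 6 fell and 1 rose in each line, with STAG1 at -0.77, -0.64 and -0.49 and the cohesin release factor WAPL at -0.43, -0.45 and -0.45. Of 12 genes of the DREAM and MuvB complexes 5, 3 and 2 fell and 1, 1 and 3 rose. E2F4, a repressor subunit of DREAM, fell by 0.99, 0.92 and 0.86, and TFDP2 rose by 0.40, 0.61 and 0.56. CDKN1A, which codes for the CDK inhibitor p21, rose by 1.14 ± 0.06, 1.34 ± 0.06 and 1.39 ± 0.06 in EV, WT and MUT, from 359, 409 and 253 CPM to 789, 1036 and 663 CPM. Its part in the members' changes was not tested. With library totals alone the partner counts that fell and rose in EV, WT and MUT were 6, 10 and 8 against 3, 4 and 6 for mitotic entry, 6, 6 and 6 against 0, 0 and 0 for the APC/C, 6, 6 and 6 against 8, 11 and 12 for kinetochores, 4, 4 and 2 against 2, 2 and 6 for cohesin and condensin II, and 2, 1 and 1 against 2, 3 and 5 for DREAM and MuvB.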

How the data were processed

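RNA from 18 libraries in 6 groups of 3 was sequenced with NEBNext Ultra kits, per the labels' protocols. The submitters' processing notes name CASAVA, STAR 2.6.1d and hg38, and the counting tool and strand setting are not given in the sources used here. The deposited gene table holds estimated counts, 71.1% of them whole, which were rounded here. A second deposited table of 19591 genes holds a signal that the authors normalized, and each library's counts divided by it gave 1 factor (largest relative deviation 8.14e-06), used as the authors' scaling.

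The counts were fitted with edgeR 4.0.16 (limma 3.58.1, R 4.3.3): TMM, filterByExpr by group, glmQLFit and glmQLFTest over all libraries, and Benjamini-Hochberg adjustment over all 18226 tested genes (common coefficient of variation 0.104). Log2 CPM values used a prior count of 2, and log2 fold changes were taken from the fit with edgeR's default prior count. The fit was also run on simulated counts with 200 changed genes and a biological coefficient of variation of 0.1 in every library. As the groups here differ in spread, that run does not test the fit under unequal spread. DESeq2 1.42.0, other scalings and filters, only the groups compared, a replicate block and leaving out each library were alternatives.

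The members and all lists, partners and markers included, were chosen with earlier results of these data known. Values by library, for some members as a range or for some lines only, are given for the 3 most negative and 1 most positive members of each role by mean change over the lines, for members called in an interaction, and for the 2 largest called differences of each line comparison. The other values shown (AURKA, BUB3 and the like) were chosen to describe a role. Exonic lengths are from GENCODE v44. Of the members, 24 overlap another gene of the table, 18 of them on the opposite strand, and 7 have a named pseudogene there. The cultures behind the triplicates are not described further, so p-values refer to the spread between these libraries alone. That spread was estimated over all 18 libraries at once, although the biological coefficient of variation ran from 0.0398 to 0.216 between groups. A p-value therefore does not measure the spread of the compared groups by themselves.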

Additional observations from a re-analysis of the deposited data

Results flagged for a closer look

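DLGAP5 was the member whose cytarabine effect differed between lines by the interaction test. Its log2 fold change in WT minus that in EV was -0.39 ± 0.08 (SE; edgeR adjusted p = 0.0427), from -0.01 ± 0.06 in EV and -0.41 ± 0.06 in WT. All 3 treated WT libraries lay below all 3 untreated ones, and the EV groups overlapped. The call held with a mean of at least 50 counts (-0.42), with only the groups compared (-0.40), with DESeq2 (-0.38) and without treated EV replicate 2 (-0.41), and in none of the other alternatives.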

How the results depend on the processing

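Library totals alone, chosen after the data were seen, moved the counts of members that fell from 25 to 8 in EV, from 37 to 15 in WT and from 32 to 13 in MUT, and of those that rose from 3 to 11, from 2 to 8 and from 5 to 17. With the authors' factors 1 member rose in EV and 3 in MUT. With a mean of at least 50 counts 6 rose in EV. With only the groups compared, fitted on 6 libraries, 5 rose in EV and 2 in MUT, 3 members differed between untreated MUT and EV (13 in the fit over all libraries), 9 between untreated MUT and WT (22), 35 between treated MUT and WT (22) and 30 between untreated WT and EV (10). The last count was 6 with library totals and 6 without the low-count filter. Interactions between MUT and EV numbered 1 with a mean of at least 50 counts and 7 with DESeq2, and between MUT and WT 1 with DESeq2. The interaction of WT with EV had 0 members with RLE factors, the authors' factors, library totals, no low-count filter and the replicate block. Except for the construction of the smaller fits, the cause was not tested. Apart from the DESeq2 interactions, the shares of all tested genes called under these alternatives and those below are not given.

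Leaving out 1 library at a time gave 20 to 25 members that fell in EV, 32 to 33 in WT and 29 to 37 in MUT, and 2 to 4, 2 to 2 and 3 to 4 that rose. It gave 0 to 6 interactions of MUT with EV, 0 to 1 of MUT with WT and 0 to 1 of WT with EV. Between lines it gave 8 to 22 (untreated) and 7 to 12 (treated) for MUT and EV, 19 to 28 and 16 to 22 for MUT and WT, and 3 to 4 and 17 to 25 for WT and EV.

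The replicate numbers showed little pairing of the libraries over all groups. Of 45 same-numbered pairs 7 had deviations correlated above 0.1 (median r -0.02, against 0.00 for other numbers). Their r ran from -0.176 to 0.352, and the share of other pairs above 0.1 is not given. Of 18 libraries 6 correlated best with their own number. Pairing between some groups was not tested further. With the replicate block 28, 36 and 32 members fell and 4, 2 and 5 rose in EV, WT and MUT, and the interaction of WT with EV had 0 members.

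Of 64 single-gene values, recomputed under every alternative that touches them, 823 kept direction and call, 66 lost the call, 8 gained one and 5 reversed: NCAPH in MUT with totals (0.0446), TOP2A in WT with the authors' factors (-0.0195), and DLGAP5 in EV with totals (0.175), with a mean of at least 50 counts (0.0434) and without treated EV replicate 2 (0.0049; lowest -0.0386, without treated EV replicate 3).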
